A study of Mus musculus with 16 samples.

Results

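The 10 genes studied here belong to the cytosolic and mitochondrial heat shock machinery and were followed in amino acid deprived N25/2 cells, an immortalized line of embryonic mouse hypothalamic cells. They were Bag3, Hsph1, Hspa8, Hsp90aa1, Hsp90ab1, Dnaja1, Dnajb1, Hspd1, Hspb1 and Hspa4, listed by name and not by any measured value. Rows of the deposited array table that carry 1 gene symbol named 9 of these 10 genes, out of 19938 genes in all. No such row names Hsp90ab1, and it was not analysed here. Of the 9 genes, 5 had several rows, and for these the row with the highest mean over 16 arrays was used.

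The groups were deprived cells, kept 1, 2, 3, 5 or 16 h in a medium lacking amino acids, and control cells, kept as long in one that contained them. At 5 h there were 4 deprived and 4 control arrays, numbered 1 to 4 in each group. At 1, 2, 3 and 16 h there was 1 deprived and 1 control array, so differences at those times have no replicate check. All cells were of this 1 line, grown in DMEM with fetal bovine serum and antibiotics before the treatment. Nothing states that the 4 arrays of a group stand for separate cultures, and the p-values therefore cover a spread that may be only technical.

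The log2 values span 3.07 to 14.2, with array medians of 7.02 to 7.12, and precision is limited by how few arrays there are. The 2 arrays numbered 4 at 5 h lay away from arrays 1 to 3 for several genes, and values without them are given where a call turns on them. Trib3 and Ddit3, targets of the amino acid response, were higher in deprived cells at 5 h by 2.52 (SE 0.12, limma adjusted p = 1.74e-05) and 1.77 (SE 0.14, adjusted p = 0.000187) on the log2 scale. Of 6 neural progenitor markers, Nes, Sox2, Vim, Hes1 and Notch1 averaged 10.34, 10.69, 13.70, 8.68 and 8.21 over the 16 arrays, and Pax6 averaged 5.96, below the array medians. Of 9 neuronal markers, Stmn2 and Map2 averaged 12.25 and 9.54, and the other 7, Snap25, Rbfox3 and Pomc among them, averaged 5.40 to 6.63. Of 5 fibroblast markers, Col1a1, Pdgfrb and Dcn averaged 12.03, 11.61 and 7.77, Col1a2 lay at 7.51 to 8.37, and Thy1 averaged 6.73, below the array medians. Of 5 astrocyte markers, Slc1a3 averaged 11.74. Gfap, Aqp4, S100b and Aldh1l1 averaged 6.31, 6.22, 5.77 and 6.54, below the array medians.

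Heat shock proteins are chaperones that bind unfolded proteins and help them fold, and many are made at high levels in every growing cell. Hsp70 proteins work in cycles set by J-domain proteins, which deliver substrates and start ATP hydrolysis, and by nucleotide exchange factors, which end the cycle; Hsp90 receives part of the clients afterwards. The transcription factor Hsf1 raises many of these genes when unfolded protein accumulates, through promoter elements built from inverted repeats of the unit GAA. In mitochondria the chaperonin of Hspd1 and its lid, made from Hspe1, fold imported proteins.

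Deprived cells had less of Bag3, a partner of Hsp70 that releases its nucleotide: it fell 1.54-fold at 5 h and was 1.99-fold lower on the single deprived array at 16 h. The 5 h call of Bag3 (limma adjusted p = 0.0287) was lost in 6 of 8 fits with 1 array left out (adjusted p up to 0.105) and with all rows in the fit (0.0536). Hsph1, a partner of the same kind, was 2.38-fold lower at 16 h, and at 5 h its difference of -0.41 passed the test only under some alternatives. In the rows used here, differences of the abundant cytosolic chaperone genes Hspa8, Hsp90aa1 and Dnaja1 ran from -0.20 to 0.06 over the 5 times (log2 scale). Other rows that carry only these symbols went as low as -0.28 for Hspa8 and -0.24 for Hsp90aa1, both at 1 h. For Dnaja1 such a row was at -0.54 at 16 h. The mitochondrial chaperonin gene Hspd1 differed by -0.48 at 1 h and by 0.50 at 16 h. In such bulk samples a smaller share of a cell type and less RNA per cell cannot be told apart.

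At 5 h, 1 of the 9 genes passed the threshold of limma's test (adjusted p of 0.05 over all 19938 genes), and it was lower in deprived cells; of all genes, 4.11 percent passed in either direction, 2.41 percent higher and 1.7 percent lower. With the array number as a block, 2 of 9 passed, both lower, against 18.2 percent of all genes in either direction, 8.22 percent higher and 10 percent lower. Without both arrays numbered 4 the count was 2 of 9, both lower, against 13.5 percent of all genes in either direction and 7.17 percent lower. The median change of the 9 genes at 5 h was -0.04, and that of all genes -0.01.

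**Figure D1:**
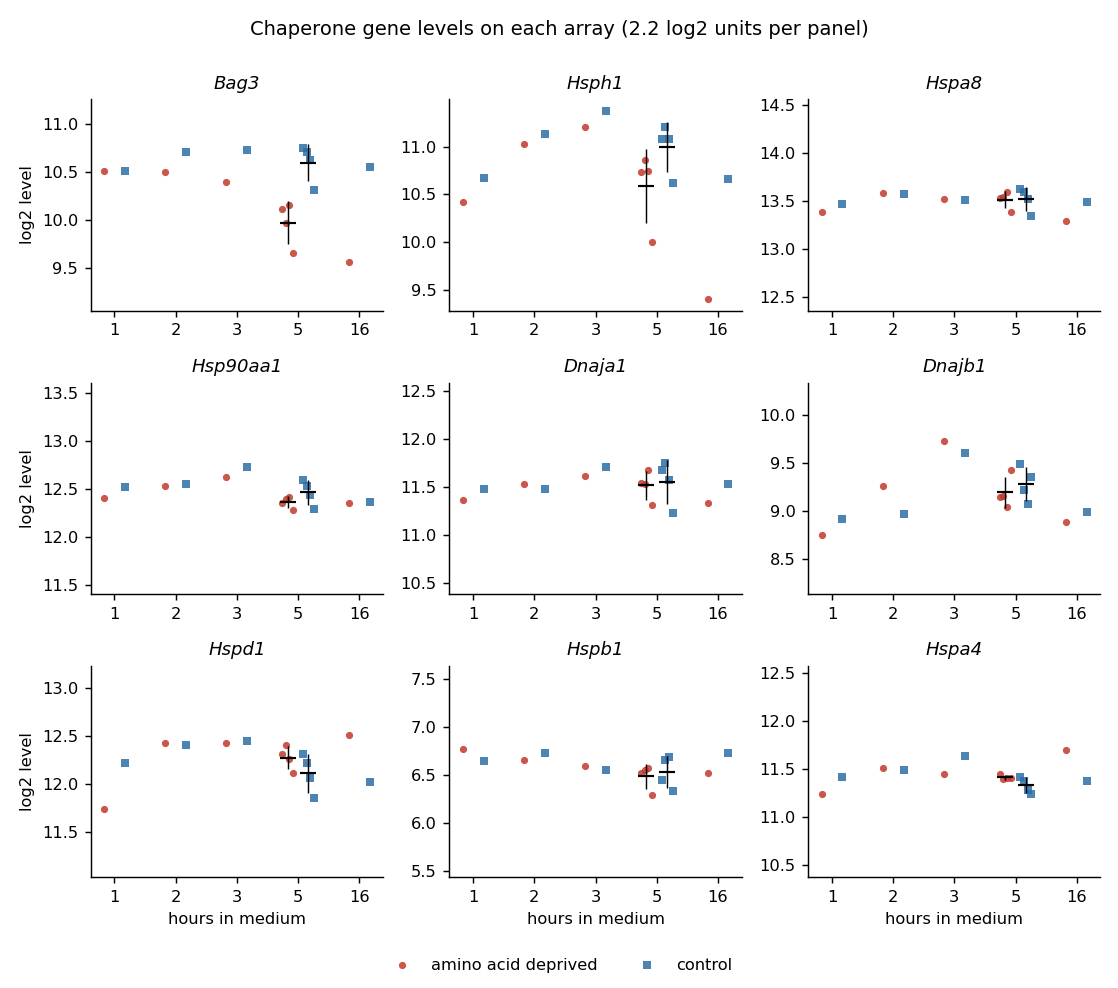
Log2 level (vertical axis, 2.2 units in each panel) of the 9 chaperone genes on each array by hours in medium (horizontal axis), with deprived cells as red circles and control cells as blue squares; black lines at 5 h give the mean and SD of 4 arrays. Bag3 and Hsph1 are the 2 panels in which deprived cells lie clearly below control cells at 16 h (9.57 against 10.56, and 9.41 against 10.66).

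Bag3 codes for a co-chaperone that binds Hsp70 through its BAG domain, speeds nucleotide release and links Hsp70 to small heat shock proteins and selective autophagy. Its gene lies on chromosome 7 at 128523583 to 128546981 (GRCm38.p6, RefSeq). At 5 h Bag3 stood at 10.12, 9.97, 10.16 and 9.66 on deprived arrays 1 to 4, against 10.75, 10.71, 10.63 and 10.32 on control arrays 1 to 4. Every deprived value lay below every control value, with array 4 lowest in both groups.

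The mean level of Bag3 was 9.98 ± 0.23 in deprived cells and 10.60 ± 0.19 in control cells (SD, n = 4 each), a fall of 0.63 on the log2 scale (SE 0.13, limma adjusted p = 0.0287). Bag3 was the only 1 of the 9 genes that was lower without overlap at 5 h, as were 5.38 percent of all genes. The groups of every other gene of the 9 overlapped. The call held with the block (adjusted p = 7.39e-05) and without both arrays numbered 4 (0.000299). It was lost when deprived array 1, 2 or 3 was left out (adjusted p = 0.063, 0.0903 and 0.0508), and likewise for control array 1, 2 or 3 (0.0999, 0.105 and 0.0827), while the change stayed between -0.72 and -0.52 with any 1 array left out.

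Over time, Bag3 was at 10.51 in deprived and 10.52 in control cells at 1 h. At 2 h it was at 10.50 in deprived and 10.71 in control cells, and at 3 h at 10.40 and 10.73. At 16 h it was at 9.57 in deprived and 10.56 in control cells, a difference of -0.99. Deprived levels at 1, 2 and 3 h were thus inside the range of the 8 control arrays (10.32 to 10.75), and those at 5 and 16 h were below it.

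The promoter table of RefSeq covers 250 bases before to 50 after each start and held windows for 7 of the 9 genes, 12 windows in all. They were searched on both strands for a pair of inverted units (GAANNTTC or TTCNNGAA) and for a run of 3 units (GAANNTTCNNGAA or TTCNNGAANNTTC), the form usually called a heat shock element; each run of 3 contains pairs. Of all 32851 windows, 15.1 percent held a pair and 0.603 percent a run of 3. Of the 12 windows, 6 held a pair and 3 a run of 3; several windows of a gene overlap. The pairs belonged to 5 of the 7 genes and the runs of 3 to Hsph1 and Hspd1. A match describes the letters only. Coordinates are those of GRCm38.p6, and the build behind the arrays is not given in the sources used here.

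For Bag3 the window held 1 pair, 43 bases after the start, shown because this gene changed; capitals mark the pair (chr7:128523603-128523632, plus strand).
Bag3: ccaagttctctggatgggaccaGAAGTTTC

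Hsph1 codes for Hsp110, a large relative of Hsp70 that acts as its nucleotide exchange factor and helps to dissolve aggregates. The gene lies on the minus strand of chromosome 5 (149616843 to 149636498). At 5 h Hsph1 stood at 10.73, 10.86, 10.75 and 10.01 on deprived arrays 1 to 4, against 11.08, 11.20, 11.08 and 10.62 on control arrays 1 to 4. The groups overlap only through control array 4, which lay below deprived arrays 1 to 3.

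Hsph1 averaged 10.59 ± 0.39 in deprived cells and 11.00 ± 0.25 in control cells (SD, n = 4 each), and the difference of -0.41 (SE 0.19) missed the threshold (limma adjusted p = 0.405). Same-numbered arrays differed by -0.35, -0.35, -0.33 and -0.61. With the array number as a block Hsph1 passed (adjusted p = 0.00156), and it did so without both arrays numbered 4 (change -0.34, adjusted p = 0.00791). With 1 array left out it passed for 0 of 8 arrays, and without deprived array 4 the change was -0.22.

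At 1 h Hsph1 was at 10.42 in deprived and 10.67 in control cells. It stood at 11.03 and 11.13 in deprived and control cells at 2 h, and at 11.20 and 11.37 at 3 h. The level at 16 h was 9.41 in deprived cells, the lowest of the 16 arrays, and 10.66 in control cells, a difference of -1.25. In both groups the level was higher at 3 h than at 1 or 16 h, so the control cells moved over time as well. Hsph1 was the only 1 of the 9 genes with an absolute difference of 1 or more at 16 h, where 4.93 percent of all genes differed by that much and 2.97 percent were lower. At 1, 2 and 3 h 0 of the 9 differed by 1 or more, as 0.125, 0.181 and 0.135 percent of all genes did.

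Windows of Hsph1 held both motifs and are shown because this gene differed most among the 9 at 16 h. The first sequence has a pair in capitals, 33 bases before the upstream of the 2 starts in the promoter table (chr5:149636351-149636380, minus strand). The second has a run of 3 units in capitals, 16 bases after the other start (chr5:149636279-149636308, minus strand). Both stretches lie inside the annotated gene, which extends past these starts.
Hsph1 upstream: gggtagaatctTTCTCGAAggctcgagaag
Hsph1 downstream: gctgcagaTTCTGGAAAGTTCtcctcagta

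Hspa4 codes for another Hsp110 family exchange factor, usually made without stress (chromosome 11, 53259814 to 53300479). Its levels at 5 h were 11.45, 11.39, 11.40 and 11.40 on deprived arrays 1 to 4, against 11.42, 11.37, 11.28 and 11.24 on control arrays 1 to 4. The groups overlap, and the difference was 0.08 (SE 0.07, limma adjusted p = 0.858). At 16 h Hspa4 was at 11.70 in deprived and 11.37 in control cells, a difference of 0.34 with the sign opposite to that of Hsph1. At 1, 2 and 3 h the differences were -0.18, 0.02 and -0.18. The Hspa4 window held neither motif.

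**Figure D2:**
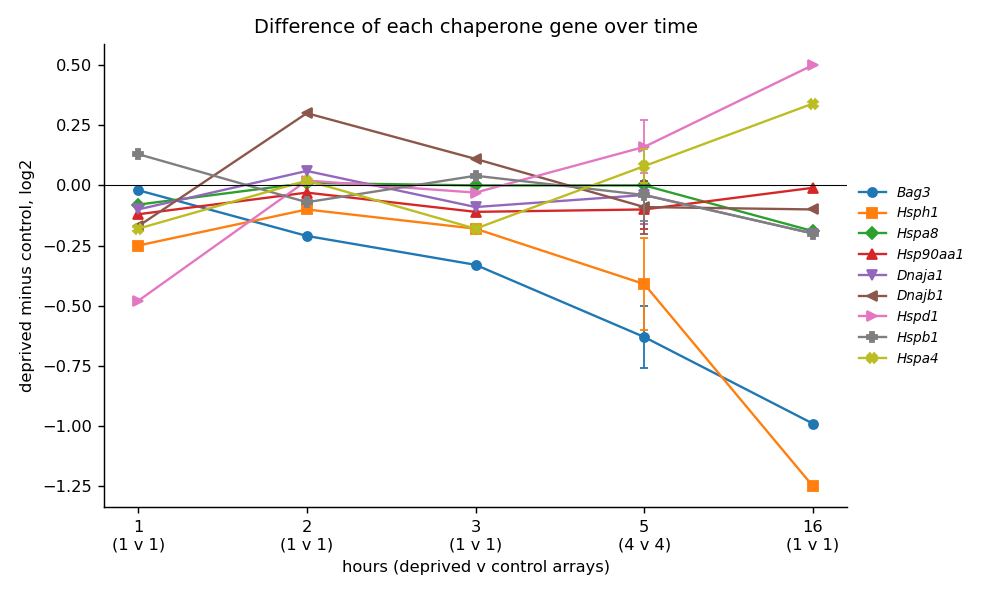
Deprived minus control on the log2 scale (vertical axis) for the 9 genes at 1, 2, 3, 5 and 16 h (horizontal axis); points at 5 h are means of 4 against 4 arrays with the SE of limma's fit, and the others are single arrays. The lines of Bag3 and Hsph1 end at -0.99 and -1.25, and those of Hspd1 and Hspa4 at 0.50 and 0.34.

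Hspa8 codes for Hsc70, the constitutive Hsp70 of the cytosol. It stood at 13.53, 13.54, 13.59 and 13.38 on deprived arrays 1 to 4 at 5 h, against 13.62, 13.59, 13.52 and 13.34 on control arrays 1 to 4. The groups overlap, with a difference of 0.00 (SE 0.09, limma adjusted p = 1). At 16 h Hspa8 was at 13.29 in deprived and 13.49 in control cells. The other single-symbol rows of Hspa8 differed at 5 h by -0.02 and 0.06 and at 16 h by -0.22 and -0.17. Hspa8, Hsp90aa1, Hspd1 and Dnaja1 have processed pseudogene copies in the mouse genome, so their rows may share signal, and the levels of these genes are uncertain to that extent. The row used for such a gene may be placed at a copy and not at the gene itself. Positions of the rows were not looked up here.

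Neither J-domain gene, whose proteins deliver substrates to Hsp70, passed at 5 h. Dnaja1 stood at 11.55, 11.54, 11.68 and 11.32 on deprived arrays 1 to 4, against 11.68, 11.75, 11.58 and 11.23 on control arrays 1 to 4, and the groups overlap. It averaged 11.52 ± 0.15 in deprived and 11.56 ± 0.23 in control cells (SD, n = 4 each), with a difference of -0.04 (SE 0.12, limma adjusted p = 1). A second row of Dnaja1, at a mean of 8.72, differed by -0.43 at 3 h and -0.54 at 16 h. The row used here differed by -0.09 and -0.20, so the rows disagree in size. A row whose annotation lists both Mir207 and Dnaja1 differed by 0.35, 0.02 and -0.19 at 3, 5 and 16 h, with the opposite sign at 3 h. Dnajb1, the J protein that is induced with the inducible Hsp70, was at 9.15, 9.16, 9.05 and 9.43 on deprived arrays 1 to 4 at 5 h, against 9.49, 9.22, 9.08 and 9.36 on control arrays 1 to 4. These groups overlap, and the difference was -0.09 (SE 0.11, limma adjusted p = 0.966).

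Dnajb1 moved with time in both groups. Deprived cells had 8.75, 9.27 and 9.73 at 1, 2 and 3 h and 8.89 at 16 h, against 8.92, 8.97 and 9.61 and then 8.99 in control cells. The highest value of the 16 arrays was at 3 h in deprived cells, followed by 3 h in control cells, and the difference of 0.30 at 2 h was the largest of the 9 genes at that time in size.

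Hsp90aa1 codes for the stress-inducible cytosolic Hsp90. Its 5 h levels were 12.35, 12.39, 12.42 and 12.28 on deprived arrays 1 to 4, against 12.59, 12.53, 12.44 and 12.29 on control arrays 1 to 4, an overlap made by control array 4. The difference was -0.10 (SE 0.08, limma adjusted p = 0.828), with the block 0.362; with array weights it passed (change -0.14, adjusted p = 0.0356). Hsp90aa1 was lower in deprived cells at all 5 times, as were Bag3 and Hsph1, against 6.71 percent of all genes, but by only 0.01 at 16 h (12.35 in deprived and 12.36 in control cells). The other rows of this gene differed by -0.10 and -0.07 at 5 h and by 0.02 and -0.08 at 16 h, so its sign at 16 h depends on the row.

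Hspb1 codes for Hsp27, a small heat shock protein that holds unfolded clients. Its row lay below the array medians throughout, at 6.29 to 6.77 on the 8 deprived arrays and 6.33 to 6.72 on the 8 control arrays, and this low level limits what can be seen of it. The 5 h difference was -0.04 (SE 0.11, limma adjusted p = 1). A second row of Hspb1, at a mean of 6.3, differed by -0.05 at 5 h and -0.28 at 16 h, against -0.20 at 16 h for the row used. The Hspb1 window held 2 pairs, 117 and 97 bases before the start. They are shown, in capitals, as an instance of the motif in a gene whose groups overlap (chr5:135887786-135887845, plus strand).
Hspb1: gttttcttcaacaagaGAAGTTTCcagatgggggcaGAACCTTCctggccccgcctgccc

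**Figure D3:**
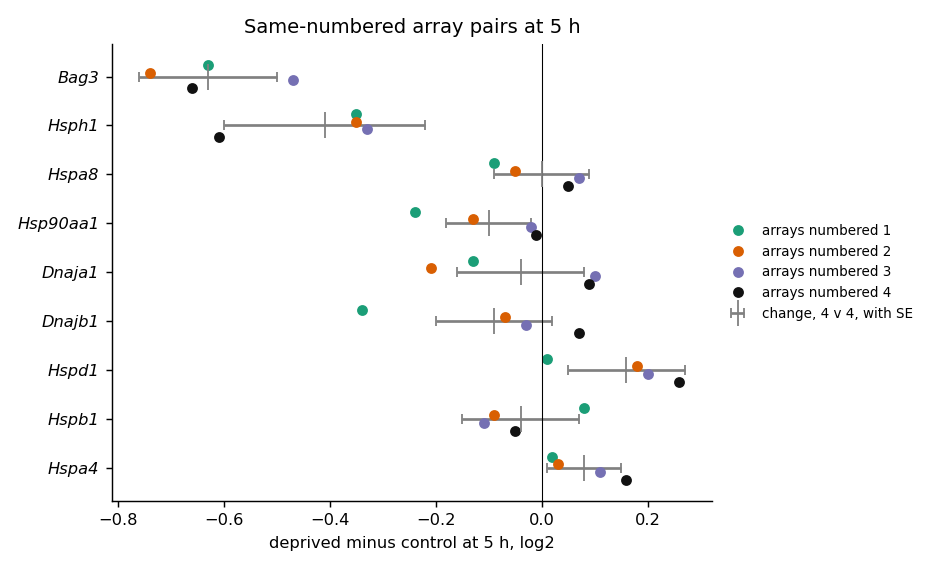
Deprived minus control at 5 h on the log2 scale (horizontal axis) for each gene (rows), with a coloured point for each pair of same-numbered arrays and a grey bar for the change over 4 against 4 arrays with its SE. All 4 points of Bag3 (-0.74 to -0.47) and of Hsph1 (-0.61 to -0.33) lie left of 0, and all 4 of Hspd1 (0.01 to 0.26) and Hspa4 (0.02 to 0.16) lie right of it.

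Hspd1 codes for Hsp60, the chaperonin of the mitochondrial matrix (chromosome 1, 55077833 to 55088243, minus strand). At 5 h it stood at 12.31, 12.40, 12.26 and 12.11 on deprived arrays 1 to 4, against 12.31, 12.22, 12.06 and 11.85 on control arrays 1 to 4. Array 4 was lowest in both groups, and the groups overlap. The difference was 0.16 (SE 0.11, limma adjusted p = 0.708), with the block 0.116.

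At 1 h Hspd1 was at 11.74 in deprived cells, the lowest of the 16 arrays, and 12.22 in control cells. At 2 h it was at 12.42 and 12.40, and at 3 h at 12.42 and 12.45, in deprived and control cells. At 16 h it was at 12.51 in deprived cells, the highest of the 16 arrays, and 12.02 in control cells. The second row of Hspd1 showed the same order, with differences of -0.72 at 1 h, 0.26 at 5 h and 0.72 at 16 h.

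Hspd1 and Hspe1 lie head to head, and their promoter windows share 285 bases. The stretch shown (chr1:55088053-55088082, minus strand, read towards Hspd1) lies in the shared part. Capitals mark 2 overlapping runs of 3 units, 144 and 139 bases before the downstream of the 2 Hspd1 starts. The other Hspd1 start lies past the Hspe1 start, so the stretch is inside the annotated Hspd1 gene, and the window of that start held neither motif.
Hspd1 and Hspe1: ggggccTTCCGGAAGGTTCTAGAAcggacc

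Hspe1 codes for the lid, Hsp10. At 1 h it was at 12.37 in both deprived and control cells. At 3 h it was at 12.29 in deprived and 12.52 in control cells, and at 16 h at 11.89 and 11.91. At 5 h it averaged 12.09 ± 0.07 in deprived and 12.18 ± 0.17 in control cells (SD, n = 4 each), with a difference of -0.09 (SE 0.10, limma adjusted p = 0.94). Pearson's r of the pair was 0.19 across the 16 arrays, which share treatments and times.

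**Figure D4:**
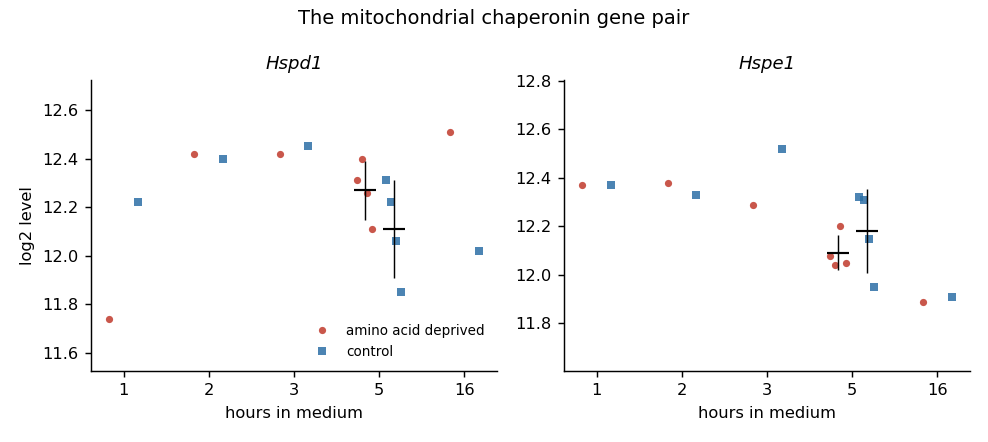
Log2 level (vertical axes, 1.2 units each) of Hspd1 and Hspe1 on each array by hours in medium (horizontal axes); red circles are deprived and blue squares control cells, with mean and SD of 4 arrays at 5 h. Hspd1 is at 11.74 against 12.22 at 1 h and 12.51 against 12.02 at 16 h (deprived against control), whereas Hspe1 is at 12.37 in both and at 11.89 against 11.91.

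A limma fit with hours as a factor tested the mean difference over 1, 2, 3 and 16 h. No gene passed (0 percent, and 0 of the 9), with 1244 genes (6.24 percent) at an unadjusted p under 0.05. For Bag3 the mean difference was -0.39 (SE 0.16, adjusted p = 0.797) and for Hsph1 -0.44 (SE 0.20, adjusted p = 0.799), negative at all 4 times for each. Hspd1 and Hspa4 had mean differences of 0.00, since their signs differed between early and late times. The count of the 9 genes below control was 8, 4, 6, 7 and 7 at 1, 2, 3, 5 and 16 h, where 47, 51.8, 45.7, 55.4 and 56.2 percent of all genes were below it. Their median difference was -0.12, 0.01, -0.09, -0.04 and -0.19 at these times, against 0.01, -0.01, 0.02, -0.01 and -0.04 over all genes. At 1 h other chaperone lists were also mostly below control, with 11 of 14 TRiC and prefoldin genes and 14 of 16 genes of the endoplasmic reticulum.

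Likeness is given as Pearson's r over the 16 arrays, which share treatments and times, and describes these arrays only. Bag3 and Hsph1 were each other's most alike member (r = 0.81), as were Hspa8 and Dnaja1 (0.85) and Hspd1 and Hspa4 (0.85). The lowest values were -0.55 for Dnajb1 and Hspb1 and -0.25 for Bag3 and Hspa4. Outside the chaperone lists, Rras2 (r = 0.94), Serpinb9 (0.91), and Kpna3, Twf1 and Meis1 (0.90 each) were the 5 genes most alike to the mean profile of the 9. At 5 h none of these 5 passed, with adjusted p-values from 0.656 for Rras2 to 1 for Meis1. The mean profile, which includes each member, followed some members more than others. Its r was 0.92 with Hsph1 and 0.89 with Hsp90aa1. With Dnajb1, Hspd1, Hspb1 and Hspa4 it was only 0.50, 0.44, 0.32 and 0.18.

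Of the partners of the cytosolic chaperones, 36 of a list of 38 were measured. In limma's test at 5 h 1 rose and 3 fell, and the block gave 3 higher and 7 lower, while of all genes 2.41 percent rose and 1.7 percent fell, and with the block 8.22 percent were higher and 10 percent lower. The list's median change was -0.09. Bag2, an exchange factor related to Bag3, fell by 0.44 (SE 0.07, adjusted p = 0.00923) and passed with any 1 array left out. It stood at 8.48 to 8.67 on deprived arrays and 8.98 to 9.05 on control arrays, with no overlap.

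Hikeshi, which carries Hsp70 into the nucleus, fell by 0.37 (SE 0.08, adjusted p = 0.0268). Dnajb5, a J protein gene, fell by 0.31 (SE 0.07, adjusted p = 0.0366). Ppid, which codes for the Hsp90 co-chaperone cyclophilin 40, rose by 0.39 (SE 0.08, adjusted p = 0.0245). With 1 array left out the call of Hikeshi held for 3 of 8 arrays (deprived array 4 and control arrays 3 and 4), that of Ppid for 2 of 8 (both arrays numbered 4) and that of Dnajb5 for 0 of 8; the highest adjusted p was 0.111, 0.102 and 0.14. These 3 passed with the block (0.00331, 0.000947 and 0.00548).

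Hspa1a, which codes for the inducible Hsp70, differed by -0.46 (SE 0.15) and did not pass (limma adjusted p = 0.173), but did with the block (0.000478); the change without both arrays numbered 4 was -0.43 (adjusted p = 0.00279). It was at 7.41, 7.57, 7.35 and 6.91 on deprived arrays 1 to 4, against 7.83, 7.91, 7.88 and 7.45 on control arrays 1 to 4. Hsf1 was not analysed here. At 16 h the largest differences of this list were -1.74 for Cryab, a small heat shock protein gene (8.33 in deprived and 10.06 in control cells), 0.92 for Chordc1, an Hsp90 partner (10.72 and 9.80), and -0.80 for Cdc37, which loads kinases onto Hsp90 (8.81 and 9.61). Cryab was also far lower on both 5 h arrays numbered 4 (9.16 in deprived and 9.41 in control cells) than on the other 5 h arrays, which lay at 10.75 or above. Its 5 h difference of -0.33 (SE 0.48) did not pass (limma adjusted p = 0.988), but passed with the block (0.00279). When both arrays numbered 4 were left out it was -0.36 (adjusted p = 0.0068).

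Of 15 other mitochondrial chaperone and protease genes, all measured, 3 were higher and 0 lower in deprived cells at 5 h, and the block gave 5 higher and 1 lower. The shares of all genes were 2.41 percent higher and 1.7 percent lower at 5 h, and 8.22 and 10 percent with the block. Lonp1, a protease and chaperone of the matrix, was higher by 0.72 (SE 0.10, adjusted p = 0.00282), and Dnaja3, the mitochondrial J protein gene, by 0.59 (SE 0.07, adjusted p = 0.00238). Hspa9, the mitochondrial Hsp70, was higher by 0.62 (SE 0.13, adjusted p = 0.0263). Its control level went down over 3, 5 and 16 h (12.42, 11.88 and 11.64), while deprived cells stood at 12.48, 12.50 and 12.55. For Lonp1 control cells had 10.24, 9.52 and 9.28 at these times, and deprived cells 10.42, 10.24 and 10.69. Dnaja3 was at 10.30, 9.87 and 9.97 in control cells and at 10.34, 10.46 and 10.99 in deprived cells. Levels at 3 and 16 h are single arrays. Lonp1 and Dnaja3 passed with any 1 array left out.

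For Hspa9, control array 4 was low at 11.47, against 11.96 to 12.11 on the other controls and 12.46 to 12.60 in deprived cells. The Hspa9 difference was 0.46 without both arrays numbered 4 (adjusted p = 0.00114). The Hspa9 call was lost without deprived array 1, 2 or 3 (0.0837, 0.0801 and 0.0761) or control array 2 or 3 (0.0687 and 0.0572). At 16 h these were the 3 largest differences of the list, 1.41 for Lonp1, 1.02 for Dnaja3 and 0.90 for Hspa9. The list's median was -0.04 at 5 h and 0.29 at 16 h, against -0.01 and -0.04 over all genes, while that of the 9 listed chaperones was -0.04 and -0.19.

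None of 14 genes of the TRiC chaperonin and prefoldin, which fold actin and tubulin, passed at 5 h in limma, and 2 were lower with the block; the list's median was -0.04. At 16 h their differences ran from -0.44 to 0.50, with Cct6a, Vbp1 and Cct4 at 0.50, 0.49 and 0.48. Of 16 chaperones of the endoplasmic reticulum, 1 was higher and 1 lower in deprived cells at 5 h, and the block gave 1 higher and 9 lower. Beside these, 2.41 percent of all genes were higher and 1.7 percent lower, and with the block 8.22 percent higher and 10 percent lower. Dnajb9, a J protein gene of that compartment, rose by 1.13 (SE 0.16, adjusted p = 0.0043). Manf, a secreted stress protein gene, fell by 0.37 (SE 0.07, adjusted p = 0.0127), a call lost without deprived array 1 or 3 or control array 2 (0.0572, 0.0552 and 0.0609).

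The median of the endoplasmic reticulum list was -0.22 at 5 h and -0.56 at 16 h. Pdia6, a disulfide isomerase gene, and Sdf2l1 differed by -1.46 and -1.12 at 16 h, and Dnajb9 by 1.44. At 5 h Pdia6 differed by -0.43 (SE 0.28, limma adjusted p = 0.68) and Sdf2l1 by -0.59 (SE 0.16, adjusted p = 0.0855); without both arrays numbered 4 both passed (0.00194 and 0.000347), as they did with the block (0.000811 and 0.000141). Markers of several cell types also differed at 16 h. Of the 5 fibroblast markers all were below control, with a median of -1.57, and 3 were lower by 1 or more. Of all genes, 56.2 percent were below control and 2.97 percent lower by 1 or more. Dcn differed by -2.33 with a high level on the 16 h control array, as it averaged 7.78 on the 5 h control arrays. Medians of the oligodendrocyte, microglia and endothelial lists, whose mean levels lay below the array medians, were -0.12, 0.02 and -0.07. The mean log2 level of those 5 markers was 8.37 to 9.29 on the deprived and 9.15 to 9.72 on the control arrays of all times. The 6 neural progenitor markers had a median difference of -0.54 at 16 h. Their mean level was 9.09 to 9.78 on the deprived and 9.56 to 9.96 on the control arrays of all times. The 5 astrocyte markers had a median of -0.40, with Slc1a3 at -2.49. Of these 5 only Slc1a3 averaged above the array medians, so the median rests on rows of low level. Mean levels of the 5 were 6.88 to 7.45 on the deprived and 7.24 to 7.56 on the control arrays of all times. The 9 neuronal markers had a median of -0.17, with Stmn2 at -1.44, and only Stmn2 and Map2 averaged above the array medians. Mean levels of the 9 were 7.10 to 7.39 on the deprived and 7.19 to 7.41 on the control arrays of all times. The part of these markers in the 16 h differences of Bag3, Hsph1 and Cryab was not tested.

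**Figure D5:**
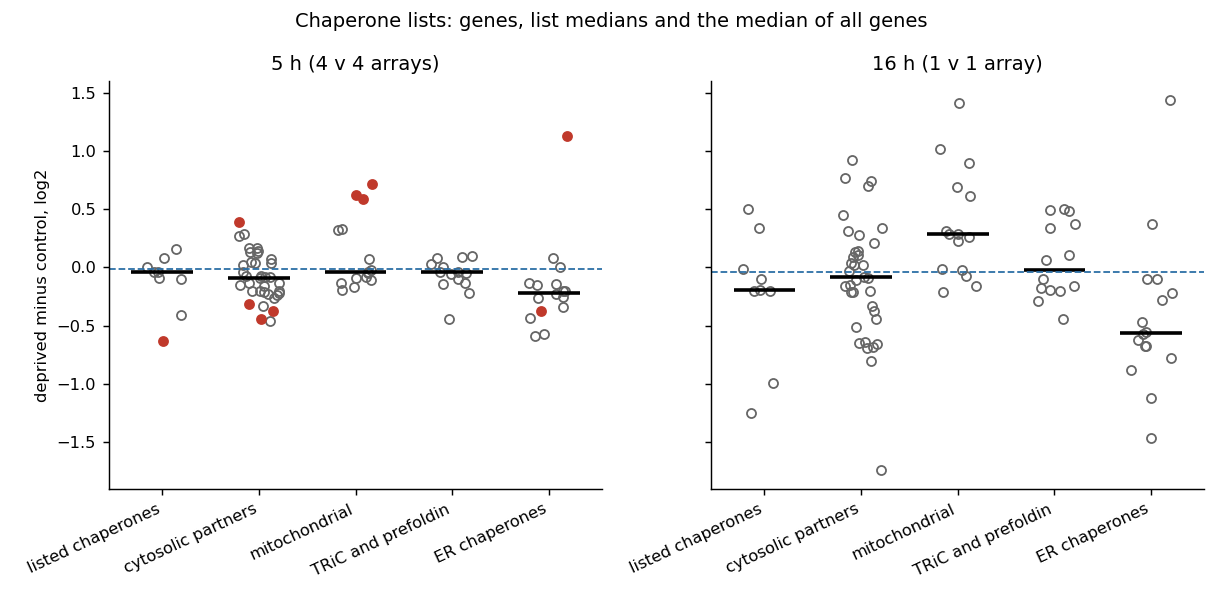
Deprived minus control on the log2 scale (vertical axis) for each gene of 5 chaperone lists at 5 h and 16 h; filled red points passed limma's adjusted p of 0.05, open points did not (5 h) or were not tested (16 h), black bars are list medians and the dashed line is the median of all genes. The mitochondrial list's bar moves to 0.29 and that of the endoplasmic reticulum list to -0.56 at 16 h.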

How the data were processed

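Total RNA of 16 N25/2 samples was amplified to biotinylated cDNA for Affymetrix GeneChips, as the labels' protocols describe. Values in the table that the authors deposited are log2 levels; RMA and limma, without versions, are the tools named per the submitters' processing notes, and background and summary settings are not given in the sources used here. The table has 35556 rows; the platform annotation gives 21789 of them 1 gene symbol, 1621 several, and leaves 12146 unnamed here. Symbols were updated through Entrez identifiers in RefSeq's GRCm38.p6 gene table (21698 matched), and the row with the highest mean was kept for each of 19938 genes. No further normalization was applied.

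The test at 5 h (4 deprived arrays against 4 control arrays) was limma's, version 3.58.1 under R 4.3.3, with lmFit and eBayes, two-sided, Benjamini-Hochberg over all genes and a threshold of 0.05. Differences at 1, 2, 3 and 16 h are single arrays without a test, counted where at least 1 in size; the mean over these times was tested with time as a factor. Deviations from the group means correlated between same-numbered 5 h arrays with 0.354, 0.584, 0.467 and 0.896, each above 0.1. The group means include the arrays numbered 4, which lay apart in both groups for several genes. Such a shared shift alone can give positive correlations for numbers 1 to 3, so these values cannot show that those numbers pair. Differently numbered arrays were not correlated. The numbers were nevertheless taken to pair the arrays, though the labels give no reason for them. The array number entered a further fit as a block. The alternatives were that block, quantile normalization, centring, a level filter, row means, all 16 arrays, another variance prior, array weights, and leaving out arrays or times. All rows in the fit, and the block without both arrays numbered 4, were added after the data were seen. Tested on simulated data drawn at each gene's mean and SD, the 5 h fit over 19938 genes found 35 percent of the genes set to change by 0.5 (n = 80), 92.5 percent of those set to change by 1 (n = 80) and 100 percent at a change of 2 (n = 40). The fit with the block found 7.5, 72.5 and 97.5 percent of the same genes. The simulation held no pairing of the arrays and no shift shared between arrays, unlike the arrays numbered 4. Each rate comes from 1 run, and another run gave other rates.

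The members, gene lists and tests were chosen with earlier results of these data known. All members were named. Of each other list, up to 5 genes past the threshold at 5 h and the 3 largest differences at 16 h were named, as were Trib3, Ddit3 and the 5 most alike genes. Hspa1a and Hspe1 were named after their values were seen. Plots used Python 3.11.15 and matplotlib 3.10.9.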

Additional observations from a re-analysis of the deposited data

Results flagged for a closer look

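Samples far from the other 3 of their group at 5 h were looked for in 28 genes and 2 groups each, 56 sets in all, of which chance alone sets apart about 1 in 20. These sets come from the same 5 h arrays, and many of the genes were named for the size of their differences. That rate is therefore no yardstick for the count below. The gap was wide in 10 sets, 9 of them on arrays numbered 4. Hsph1 was at 10.01 on deprived array 4 and at 10.73 to 10.86 on the others. Hspa4 was at 11.45 on deprived array 1, against 11.39 to 11.40. Hspa1a was at 7.45 on control array 4, against 7.83 to 7.91. Chordc1 was at 10.09 on deprived array 4, against 10.41 to 10.42. Cryab was at 9.16 on deprived array 4 and 9.41 on control array 4, against 10.75 to 10.87 and 11.11 to 11.29. Pdia6 was high on the same arrays, at 10.15 in deprived and 10.58 in control cells, against 9.13 to 9.23 and 9.51 to 9.64. Sdf2l1 was likewise high, at 9.74 in deprived and 10.50 in control cells, against 9.29 to 9.37 and 9.82 to 9.92. What sets the arrays numbered 4 apart was not tested.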

How the results depend on the processing

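Of all genes, 820 passed at 5 h. The count was 3632 with the replicate block, 5485 with array weights, 2695 without both arrays numbered 4, 2316 with the block and without them, and 382 to 1066 with 1 array left out. Of the 9 chaperone genes 1 passed; 2 passed with the block, 2 without both arrays numbered 4, 2 with both changes, 3 with array weights, 0 with all rows in the fit (Bag3 adjusted p = 0.0536) and 0 to 1 with 1 array left out. The block changed no other call among the 9. Over all settings the adjusted p of Bag3 ran from 3.87e-06 to 0.105, of Hsph1 from 0.000421 to 0.719 and of Hsp90aa1 from 0.0356 to 1. Of 170 values of the 9 genes at 5 h under an alternative, 154 kept direction and side of the threshold. A further 5 passed newly, 7 no longer passed and 4 turned sign. With 1 array left out Dnaja1 ran from -0.15 to 0.03 and Hspb1 from -0.10 to 0.03, and the turned signs were Dnaja1 0.03 and Hspb1 0.03 without deprived array 4, Dnaja1 0.02 without control array 2, and Hspb1 0.01 without control array 3. For the mean over 1, 2, 3 and 16 h, 35 genes passed without the 16 h pair, none of them among the 9; Dnajb1 turned to -0.05 without the 2 h pair and Hspb1 to 0.04 without the 16 h pair. The count of single-time differences of 1 or more among the 9 genes was 1, and 2 after quantile normalization. The cause of these changes was not tested.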

Other observations

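Rows with several symbols were left out of the comparisons, and 3 of them touch the Hsp70 genes. A row whose annotation lists both inducible Hsp70 genes, Hspa1a and Hspa1b, and so measures neither alone, averaged 9.34 ± 0.18 in deprived and 10.17 ± 0.20 in control cells at 5 h (SD, n = 4 each). The ranges, 9.08 to 9.51 and 9.88 to 10.32, did not overlap. In a fit of all 35556 rows the difference was -0.83 (SE 0.13, limma adjusted p = 0.0119, with the block 0.00183). At 1, 2, 3 and 16 h it differed by 0.11, -0.18, -0.40 and -0.51. A pair of rows with Snord14c, Snord14d and Hspa8 in their annotation, small nucleolar RNAs and their host gene, differed by -0.58 each at 5 h (SE 0.11, limma adjusted p = 0.0316 and 0.0309), while the 3 rows of Hspa8 alone differed by -0.02, 0.00 and 0.06. At 3 h the pair differed by -0.74 each, and at 16 h by 0.10 and 0.11.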
